A study of Mus musculus with 8 samples.

Results

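The members described here are 5 forkhead transcription factor genes of mouse chromosome 4, Foxe1, Foxd2, Foxe3, Foxj3 and Foxo6. They were taken by name as the forkhead genes other than Foxd3, of 6 such genes on the chromosome and of 1301 protein-coding genes with a replication timing score. The assay was Repli-seq, and the cells were JM8N4 mouse embryonic stem cells (control) and cells that the labels give as Klf4 enhancer deletion. Both genotypes received a BrdU pulse of 2 h, and nascent DNA came from 40000 sorted cells of an early and of a late S-phase fraction. The 8 libraries make 4 profiles, control 1 and 2 and deletion 1 and 2, and below "number 1" and "number 2" compare the genotypes within 1 replicate number, which the labels do not give as a pair. Coordinates are those of mm10, with "above" a gene meaning higher and "below" lower coordinates, and values after "controls" or "deletion profiles" are in the order of the replicate numbers. The labels name neither the number of clones nor the position of the deleted enhancer. The scores have no unit and no read counts, so their depth is unknown. A higher score was read as earlier replication because of gene content: 79.7% of protein-coding genes but 43.1% of all 5 kb positions had a score above 0 in every profile. Timing is the one readout here, so RNA levels and the cell type itself were not checked.

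Forkhead factors bind DNA through a winged-helix domain, and each member of the family acts in its own tissues. In embryonic stem cells Foxd3 is a member known for a role in pluripotency, while many others act later, in organs. Replication timing is set over domains much larger than a gene. Early domains tend to be gene-rich and open, and the slopes between early and late domains are where timing changes with distance.

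All 5 genes replicated early, with scores above 0 in every profile, as had 79.7% of protein-coding genes. Foxe1, Foxj3 and Foxo6 stood at a higher level than Foxe3 and Foxd2. Foxe1, a regulator of thyroid development, was earliest, at 2.70 in control 1, 2.90 in control 2, 3.05 in deletion 1 and 3.26 in deletion 2. Foxj3, a forkhead activator described in muscle and the male germ line, scored 2.19 and 2.35 in the controls against 2.48 and 3.16 in the deletion profiles. Foxo6, the FoxO family member expressed in neurons, scored 2.14 and 2.32 in the controls against 2.62 and 2.30 in the deletion profiles. Foxe3, a gene of lens development, scored 1.18 and 1.34 in the controls against 1.57 and 0.99 in the deletion profiles. Foxd2, a gene of mesenchyme and kidney development, scored 1.07 and 1.22 in the controls against 1.43 and 0.87 in the deletion profiles. Every score of Foxo6 lay above every score of Foxe3 and Foxd2. The ranges of Foxj3 and Foxo6 overlapped, as did those of Foxe3 and Foxd2, and those of Foxe1 and Foxj3 overlapped through deletion 2. Against all genes, Foxe1 stood between percentiles 66.9 and 91.9 over the 4 profiles, and Foxd2 between 21.9 and 27.1. Foxj3 stood between 39.6 and 71.6, Foxo6 between 35.9 and 61.0 and Foxe3 between 23.0 and 29.7. In both controls all members but Foxe1 were later than the median gene.

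**Figure D1:**
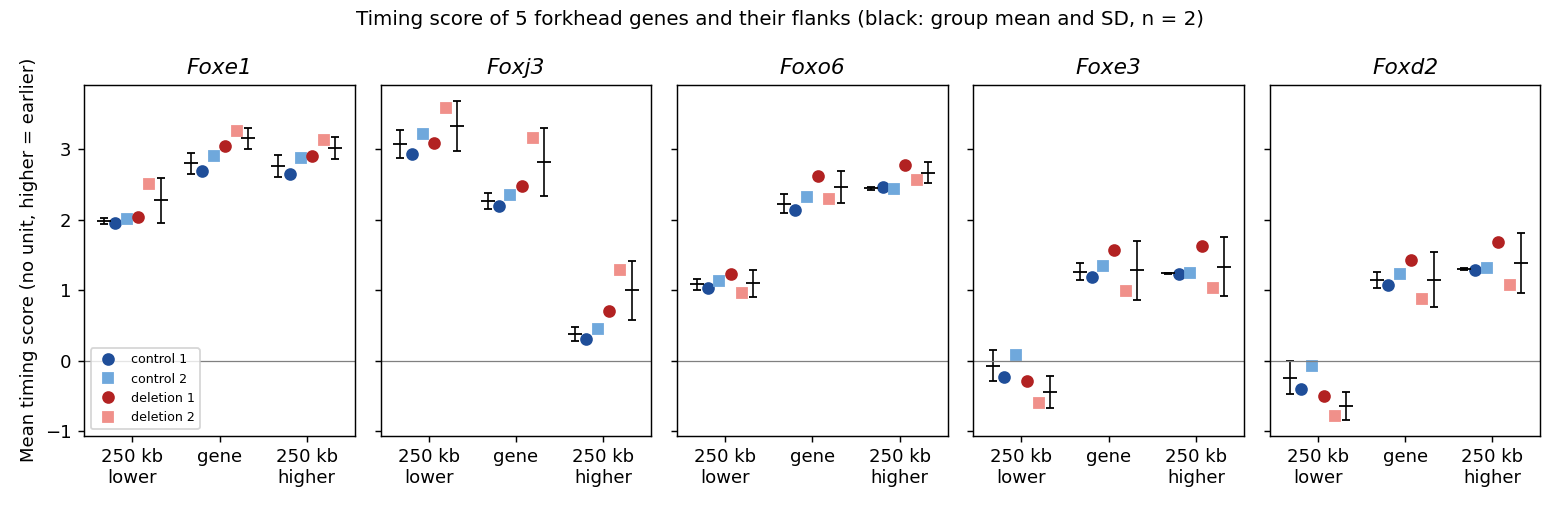
Score on the vertical axis (no unit, higher is earlier), averaged over each forkhead gene and over the 250 kb on its lower- and higher-coordinate sides, with 1 point per profile and the mean and SD (n = 2) of each genotype in black. The gene scores of Foxe3 and Foxd2 lie between 0.87 and 1.57, and their lower flanks reach -0.78 in deletion 2.

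Foxe1 (gene 110805, 46343644 to 46345774, 2.13 kb) lies in a broad early domain. Below the gene the score first reached 0, read as the first bin at or below it, at 6366 to 6426 kb from the gene over the 4 profiles, and above it at 542 to 557 kb. Its score averaged 2.80 ± 0.15 for control and 3.15 ± 0.15 for deletion (SD, n = 2 per genotype). The difference of 0.35 (SE 0.34) was 0.35 within either number. Both deletion scores lay above both controls, and it did not pass the test (limma over all genes, Benjamini-Hochberg adjusted p = 0.999). The 250 kb at lower coordinates scored 1.95 and 2.01 in the controls against 2.04 and 2.50 in the deletion profiles, and those at higher coordinates 2.65 and 2.87 in the controls against 2.91 and 3.13 in the deletion profiles. The genotypes did not overlap on either side. At the single bin 250 kb below Foxe1 the scores were 1.74 and 1.75 in the controls against 1.90 and 2.17 in the deletion profiles, and 250 kb above it the difference was 0.09. Of the 11 other protein-coding genes within 250 kb, all scored higher in deletion cells within both numbers, against 43.7% of all genes. The mean differences of these 11 were 0.16 (Xpa, a nucleotide excision repair gene) to 0.44 (Gm12447). Hemgn, a gene of blood cells, scored 2.85 and 3.15 in the controls against 3.25 and 3.23 in the deletion profiles. Genes this close share smoothed scores and are not independent of Foxe1.

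Foxd2 (gene 17301, 114906280 to 114908898) and Foxe3 (gene 30923, 114924443 to 114926067) are 15.5 kb apart and share 1 narrow early stretch beside a late region. They share no bin, and the 4 profiles had the same order at both. The 250 bases before each start, from RefSeq on GRCm38.p6 and on the minus strand, are printed because these neighbours with like timing differ in their promoters. CpG dinucleotides are in capitals, 16 at Foxd2 (chr4:114908899-114909148) and 6 at Foxe3 (chr4:114926068-114926317).
Foxd2: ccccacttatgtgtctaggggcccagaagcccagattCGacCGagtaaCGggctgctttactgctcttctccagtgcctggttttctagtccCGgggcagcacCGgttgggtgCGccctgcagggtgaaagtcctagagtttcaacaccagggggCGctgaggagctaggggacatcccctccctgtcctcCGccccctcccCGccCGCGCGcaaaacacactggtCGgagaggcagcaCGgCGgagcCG
Foxe3: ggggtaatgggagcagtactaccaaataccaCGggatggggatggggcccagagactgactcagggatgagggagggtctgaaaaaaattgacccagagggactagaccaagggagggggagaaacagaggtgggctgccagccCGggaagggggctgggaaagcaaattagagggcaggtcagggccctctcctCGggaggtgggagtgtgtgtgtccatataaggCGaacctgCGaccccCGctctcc
Counted with the 50 bases after the start, Foxd2 held 26 CpG and Foxe3 10, where the median of 2053 promoters on the chromosome was 8. As many CpG as in Foxd2 occurred in 19.3% of these promoters, and as many as in Foxe3 in 46.8%.

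The early stretch with both genes ended in the same bins for either. From Foxd2 the score reached 0 on the lower side at 104 and 124 kb in control and at 98.8 and 73.8 kb in deletion cells, nearer to the gene by 5 kb, a single bin, in number 1 and by 50 kb in number 2. On the higher side it did so at 289 and 329 kb in control and 304 and 289 kb in deletion cells, which overlap. With medians subtracted these were 349 and 364 kb in control and 339 and 309 kb in deletion 1 and 2, without overlap and nearer to the gene within both numbers. The whole stretch was 395 and 455 kb wide in control and 405 and 365 kb in deletion cells. Its highest bin scored 1.55 and 1.62 in control, 2.04 in deletion 1 and 1.29 in deletion 2. Over Foxd2 the scores averaged 1.15 ± 0.11 for control and 1.15 ± 0.40 for deletion, and over Foxe3 1.26 ± 0.12 and 1.28 ± 0.42 (SD, n = 2). The differences were 0.00 (SE 0.34) and 0.02 (SE 0.35), and both were below 0 after median centring and after quantile normalization. These means hide opposite values, 0.36 and 0.39 in number 1 against -0.35 and -0.36 in number 2. Deletion 1 was the highest of the 4 profiles at both genes and deletion 2 the lowest. By limma the adjusted p was 0.999 for either gene, so neither was called.

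Averaged over 250 kb on the late side of this pair, both deletion profiles lay below both controls, which did not pass the test (limma, adjusted p = 0.999). The 250 kb below Foxd2 scored -0.41 and -0.08 in the controls against -0.51 and -0.78 in the deletion profiles, without overlap. Its difference of -0.40 (SE 0.34) was -0.10 in number 1 and -0.70 in number 2, and lay at percentile 0.846 of all such flanks. Leaving out control replicate 2 gave -0.24, and leaving out deletion replicate 2 gave -0.26. The flank below Foxe3 covers nearly the same bins and differed by -0.38. At 250 kb below Foxd2 the scores were -2.00 and -1.58 in the controls against -2.20 and -2.08 in the deletion profiles. On the other side the genotypes overlapped, with 1.29 and 1.31 in the controls against 1.69 and 1.08 in the deletion profiles above Foxd2. Within 250 kb, 6 of 6 other protein-coding genes of Foxd2, Foxe3 included, had the same pattern of higher in number 1 and lower in number 2. They include Stil, a centriole duplication gene, at 0.46 and -0.33, and Tal1, a transcription factor of blood formation, at 0.50 and -0.18. Over all genes that pattern occurred in 18.0%.

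**Figure D2:**
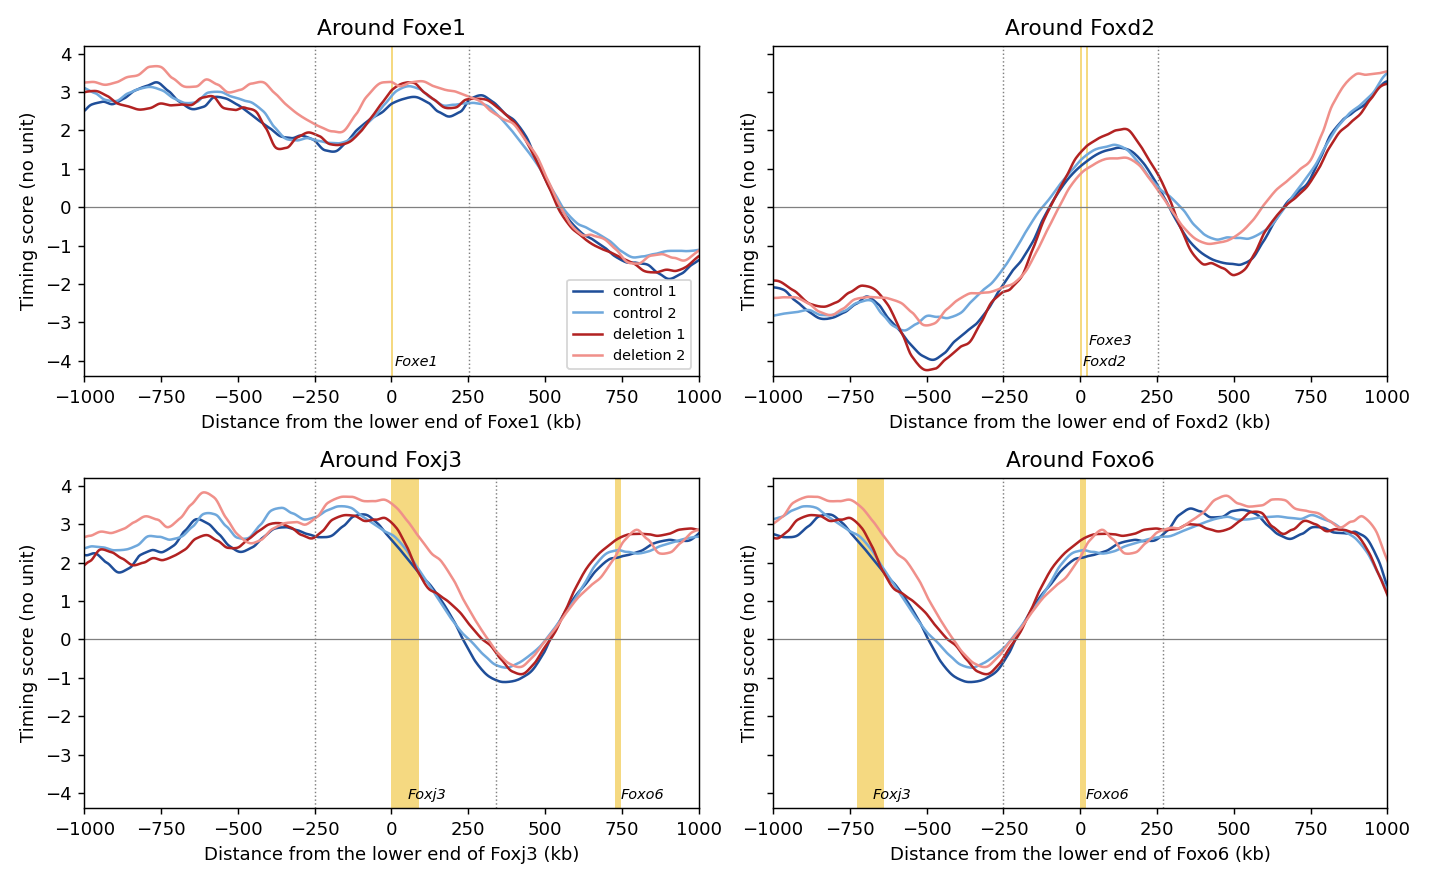
Timing score (vertical axis, no unit) of the 4 profiles against distance in kb from the lower-coordinate end of Foxe1, Foxd2, Foxj3 and Foxo6, with forkhead genes in yellow and dotted lines 250 kb to each side. Foxe1 sits in a broad early domain, Foxd2 and Foxe3 on the rising side of an early stretch 365 to 455 kb wide, and Foxj3 and Foxo6 on opposite sides of 1 late dip.

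Foxj3 (gene 230700, 119539661 to 119629119, 89.5 kb) spans the top of a slope, and its score fell along its own length. Its first bin scored 2.62 and 2.74 in the controls against 3.06 and 3.56 in the deletion profiles, and its last of 19 bins 1.75 and 1.83 in the controls against 1.74 and 2.69 in the deletion profiles. The fall from first to last bin was 0.87 and 0.91 in the controls against 1.32 and 0.86 in the deletion profiles. RefSeq puts its start at the lower, earlier end, on the plus strand. The 250 bases before it (chr4:119539411-119539660) are printed because they hold more CpG, 34, in capitals, than those of Foxd2 or Foxe3.
Foxj3: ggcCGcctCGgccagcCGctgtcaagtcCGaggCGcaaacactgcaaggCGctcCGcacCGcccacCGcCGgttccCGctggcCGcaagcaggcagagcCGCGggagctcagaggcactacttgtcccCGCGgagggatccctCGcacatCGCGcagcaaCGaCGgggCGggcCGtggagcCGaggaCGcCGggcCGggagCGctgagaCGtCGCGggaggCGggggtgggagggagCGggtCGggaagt
With the 50 bases after the start there were 42, and 4.48% of the promoters on the chromosome held as many. The forkhead core motif GTAAACA, searched on both strands of the 300 bases, was in none of these 3 promoters and in 3.51% of all. RefSeq promoters matched 3 of the 5 members, Foxd2, Foxe3 and Foxj3.

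Foxj3 had the largest difference of the members. It averaged 2.27 ± 0.11 for control and 2.82 ± 0.48 for deletion (SD, n = 2 per genotype), a difference of 0.55 (SE 0.35), at percentile 94.9 of all genes. Deletion minus control was 0.29 in number 1 and 0.81 in number 2. The genotypes did not overlap over the gene mean or in 14 of its 19 bins, those nearest its start, and overlapped in the last 5. Adjacent bins share smoothed values and do not count as separate evidence. The difference did not pass the test (limma, adjusted p = 0.999), and it was 0.21 without deletion replicate 2 and 0.89 without deletion replicate 1.

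Above Foxj3 both deletion profiles were higher than both controls, and they reached 0 farther from the gene. The 250 kb above it scored 0.30 and 0.45 in the controls against 0.70 and 1.29 in the deletion profiles, a difference of 0.62 (SE 0.34) at percentile 98.3 of all such flanks, with 0.40 in number 1 and 0.84 in number 2. Without deletion replicate 2 it was 0.33. The flank did not pass the test (limma, adjusted p = 0.999). The score reached 0 at 143 and 163 kb above the gene in control and at 208 and 228 kb in deletion cells, 65.0 kb farther within either number (exact two-sided permutation p = 0.333). With each profile's median subtracted, the crossings were at 208 kb in both controls and at 293 and 243 kb in deletion 1 and 2. On the early side the genotypes overlapped, at 2.93 and 3.21 in the controls against 3.08 and 3.58 in the deletion profiles. At 250 kb below the gene the difference was -0.05, and 250 kb above it the scores were -1.05 and -0.66 in the controls against -0.32 and -0.27 in the deletion profiles. Among 10 other protein-coding genes within 250 kb, 5 were higher in deletion cells within both numbers, near the 43.7% of all genes. Ybx1, which encodes a cold-shock domain protein, differed by -0.04, and Frg2f1, which ends 0.891 kb from Foxj3, by 0.63. Guca2a, the guanylin gene, 8.61 kb above Foxj3, differed by -0.05 in number 1 and 0.87 in number 2.

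**Figure D3:**
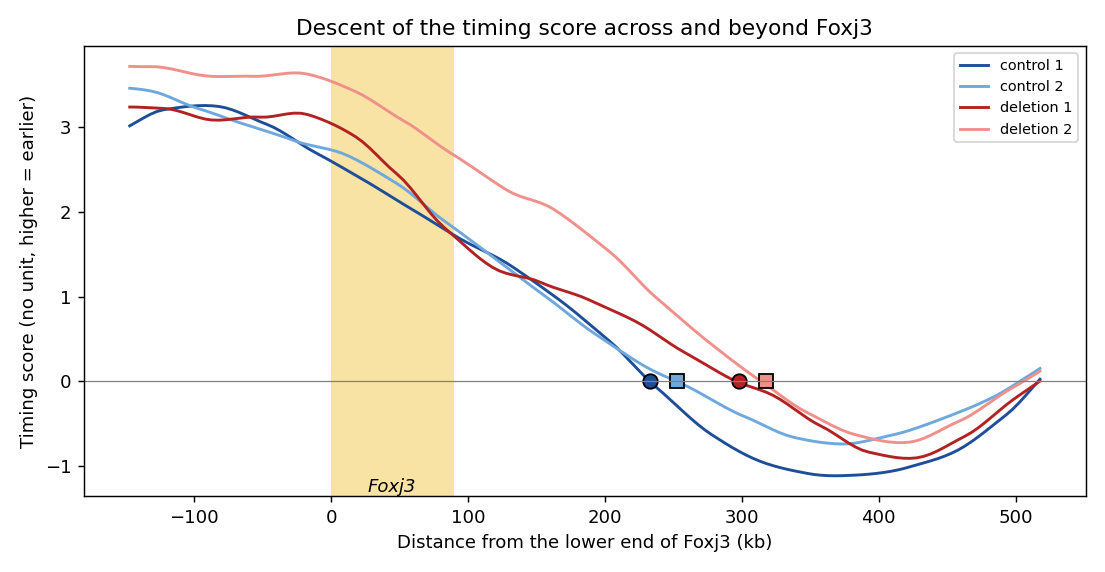
Timing score (vertical axis, no unit) against distance in kb from the lower-coordinate end of Foxj3 (yellow), with 1 line per profile and a marker where each first reaches 0 above the gene. The control markers lie 143 and 163 kb and the deletion markers 208 and 228 kb beyond the upper end of the gene.

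Foxo6 (gene 329934, 120267078 to 120287261, 20.2 kb) lies 638 kb above Foxj3, across the late dip, and on its side of that dip the deposited scores of the genotypes reached 0 in the same bins within each number. From Foxo6 down, the score reached 0 at 215 kb in both number 1 profiles and at 225 kb in both number 2 profiles. With medians subtracted these distances were 270 and 275 kb in control and 275 and 245 kb in deletion 1 and 2, and the genotypes overlapped. The dip between the genes was at or below 0 over 285 and 255 kb in control and 220 and 190 kb in deletion cells. These widths are of the deposited scores. With medians subtracted, the distance from Foxj3 to the dip differed between genotypes by 85 kb in number 1 and 35 kb in number 2. From Foxo6 down to the dip it differed by 5 kb in number 1 and -30 kb in number 2. In number 2 these shifts changed the width in opposite directions. The lowest bin of the dip scored -1.11 and -0.74 in the controls against -0.91 and -0.72 in the deletion profiles. It lay 278 and 283 kb above Foxj3 in control and 333 and 328 kb in deletion cells. Hivep3, a zinc finger gene, scored -0.37 and -0.11 in the controls against -0.02 and 0.16 in the deletion profiles. It runs from 105 kb above Foxj3 to 129 kb below Foxo6, so its score averages the dip and part of both slopes. Foxo6 itself averaged 2.23 ± 0.13 for control and 2.46 ± 0.23 for deletion (SD, n = 2 per genotype). Its difference of 0.23 (SE 0.34; limma, adjusted p = 0.999) was 0.49 in number 1 and -0.02 in number 2, and the genotypes overlapped. Its lower flank scored 1.03 and 1.13 in the controls against 1.23 and 0.96 in the deletion profiles, and its higher flank 2.46 and 2.43 in the controls against 2.77 and 2.56 in the deletion profiles. The higher flank did not overlap between genotypes. At 250 kb below Foxo6 the scores were -0.59 and -0.23 in the controls against -0.48 and -0.29 in the deletion profiles. Edn2, the endothelin 2 gene, 99.7 kb below, had the same signs as Foxo6, 0.35 and -0.19. Of 4 other protein-coding genes within 250 kb, 2 had these signs, against 18.0% of all genes. The other 2, Hivep3 among them, were higher in deletion cells within both numbers, against 43.7% of all genes.

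Set against the whole chromosome, the members gave no call. By limma 0 of the 5 genes and 0 of their 10 flanks passed, with 0 of either at an unadjusted p under 0.05. The same fits called 0% of 1301 genes, 0% of 1301 lower flanks and 0% of 1298 higher flanks, with 17 genes at an unadjusted p under 0.05. Exact two-sided permutation p was 0.333 for Foxe1 and Foxj3, the smallest that 2 profiles against 2 can give, 0.667 for Foxo6 and 1 for Foxd2 and Foxe3. Both deletion profiles lay above both controls at 2 of 5 genes, Foxe1 and Foxj3, against 15.1% of all genes, and below them at 0 of 5, against 6.53%. Of the lower flanks, 1 lay above (Foxe1; 13.2% of all lower flanks) and 2 below (Foxd2 and Foxe3; 4.77%). Of the higher flanks, 3 lay above (Foxe1, Foxj3, Foxo6; 12.9%) and 0 below (5.16%). With 5 genes at 4 places, these counts are a description.

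Within replicate numbers the members had 1 sign in number 1 and both signs in number 2. Deletion scores were higher at 5 of 5 genes in number 1, by 0.29 to 0.49, and at 2 of 5 in number 2. So 2 of 5 were higher within both numbers, against 43.7% of all genes. The median difference of all genes was 0.09 in number 1 and 0.18 in number 2. Shares of all genes that were higher within a single number are not given here. All 5 mean differences were above 0 as deposited, with a median of 0.23, where the median of all 1301 genes was 0.14. Relative to the shift of all positions, 0.16, 3 of 5 stayed above 0, at 0.40 for Foxj3, 0.20 for Foxe1 and 0.08 for Foxo6, and Foxd2 and Foxe3 stood at -0.15 and -0.14. At 4 of 5 members, all but Foxe1, the deletion replicates were farther apart than the genotype means. Deletion 2 minus deletion 1 was 0.68 at Foxj3, -0.59 at Foxe3, -0.56 at Foxd2, -0.33 at Foxo6 and 0.21 at Foxe1. Control 2 minus control 1 was between 0.16 and 0.21 at all 5. Over all genes the median absolute gap between replicates was 0.41 in deletion and 0.32 in control cells. The median difference of 0.14 is of signed differences between genotype means, so it cannot be set against these gaps.

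**Figure D4:**
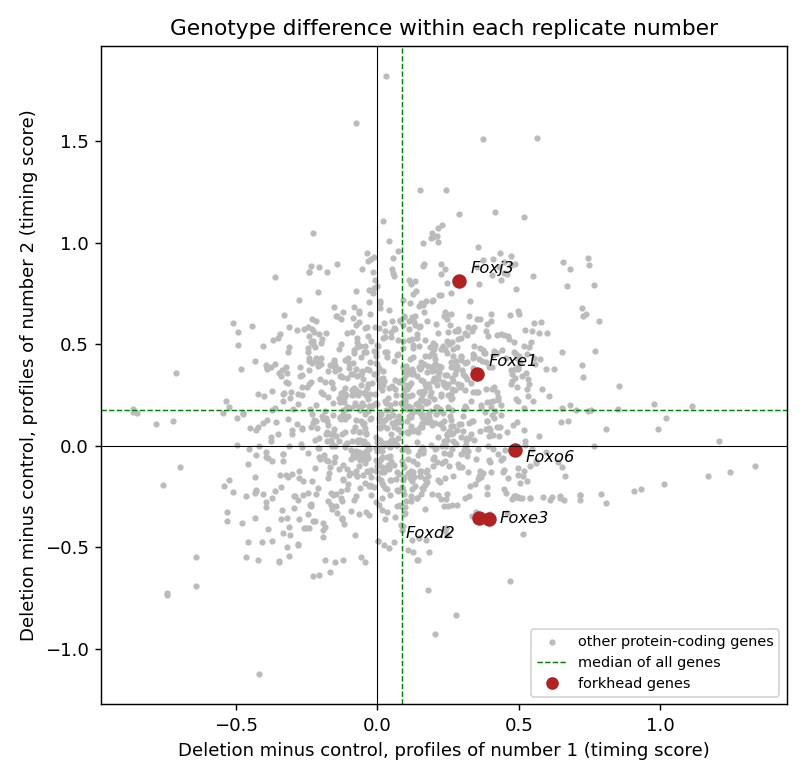
Deletion minus control timing score in the number 1 profiles (horizontal axis) and in the number 2 profiles (vertical axis), with 1 point per protein-coding gene, forkhead genes in red and medians of all genes as green dashed lines. All 5 forkhead genes lie right of 0, Foxj3 at 0.81 and Foxe1 at 0.35 above it, and Foxd2 and Foxe3 at -0.35 and -0.36 below it.

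Genes elsewhere with the most similar pattern were sought over 12 values, gene and both flanks in 4 profiles, more than 1 Mb from the member. The measure was the root mean square difference in score. For Foxe1 these were Mfsd2a, a lipid transporter gene (0.12), and Zfp362 (0.14), and for Foxo6 Lrrc47 (0.14) and Smim1 (0.14). The pair Foxd2 and Foxe3 had no such close match. Rab2a, which encodes a membrane traffic GTPase, was nearest at 0.38 and 0.32, followed by Ifnab at 0.40 for both. Foxj3 was nearest to Rad54b, a homologous recombination gene (0.28), and to Fsbp (0.32), which differed by -0.02 and -0.03 in number 1 and by 0.86 and 0.91 in number 2. Foxj3 differed from both in being higher in number 1 too. Rad54b and Fsbp both lie 108 Mb from Foxj3, and Lrrc47 and Smim1 lie 33.74 and 33.75 Mb from Foxo6. Each of these pairs is 1 place and does not count as separate matches.

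Foxd3, the remaining forkhead gene of the chromosome, scored 2.50 and 2.38 in the controls against 2.70 and 2.48 in the deletion profiles, within the range of the members. Of 35 listed transcription factor genes, Foxd3 among them, 31 were above 0 and 3 below 0 in every profile. By limma 0 rose, 0 fell and 35 did not pass, with 1 at an unadjusted p under 0.05, and their median difference of 0.15 was close to the 0.14 of all genes. The highest differences were at Bnc2, 0.78, and Tal2, 0.51, and the lowest at Nfia, -0.38, and Dmrta1, -0.32. Foxj3, at 0.55, lay between Bnc2 and Tal2, and the other members lay inside the list's range.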

How the data were processed

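The deposited table holds replication timing scores of chromosome 4 in 4 columns, and per the file headers and name the authors scaled them to a common interquartile range on mm10. The interquartile range computed here was 4.60, from a control profile, and its equality across the profiles was not checked. Bowtie2, SAMtools and bedtools are named in the submitters' processing notes, without versions. The log base, the smoothing and the early to late formula are not given in the sources used here. Columns were matched to genotype and replicate number by name, and the labels do not say whether replicates were separate cultures, so p-values may measure technical spread alone.

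Of 31301 positions, 30659 had a score in all profiles. A position was taken as the start of a 5 kb bin. Bins overlapping a gene were averaged to its score (RefSeq, GRCm38.p6), and flanks are the 250 kb on each side with at least 25 bins. Genes and flanks were tested with limma 3.58.1 (lmFit, eBayes; R 4.3.3), two-sided, with Benjamini-Hochberg adjustment over all genes and a threshold of 0.05. SEs are limma's and pool the spread over all genes. The first bin at or below 0 beyond a gene was taken as its crossing. Alternatives were a replicate block, median centring, quantile normalization, limma's trend and robust options, positions as bin ends, 50 kb added to each gene, and leaving out each profile. Fits were tested on simulated data with independent noise of a common SD, unlike the smoothed scores. How often they find differences as small as those of the members is not given here. Members and lists were chosen with earlier results of these data known, and the crossings after their profiles were seen. Named genes were the members, other forkhead genes, neighbours within 250 kb, the 2 most similar genes per member and the 2 highest and 2 lowest of the transcription factor list.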

Additional observations from a re-analysis of the deposited data

How the results depend on the processing

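No member gene passed the test under any alternative run, and of 55 alternative values of the 5 gene differences 43 kept their sign. The 12 that turned were all at Foxd2 and Foxe3, whose differences were near 0. Median centring, with or without the replicate block, gave -0.11 at Foxd2 and -0.0929 at Foxe3, quantile normalization -0.23 and -0.22, and adding 50 kb to each side -0.0287 and -0.0018. Of 110 flank values 14 turned. Median centring gave -0.0257 and -0.0196 for the higher flanks of Foxd2 and Foxe3 and -0.10 for the lower flank of Foxo6, and quantile normalization gave -0.13, -0.12 and -0.15. The single bin below Foxj3 gave -0.0466. Their cause was not tested. Among the values that kept their sign, median centring, with or without the block, took Foxo6 from 0.23 to 0.12, and quantile normalization took Foxo6 to 0.063 and Foxe1 from 0.35 to 0.21.

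With the replicate number as a block (replicate block), the higher flank of Foxj3 passed at its difference of 0.62 (limma, adjusted p = 0.0300), among 39 of 1298 higher flanks called. With the block and median centring it was 0.51 and did not pass (limma, adjusted p = 0.0713). The gene fit with the block called 0 of 1301 genes, and Foxj3 had an adjusted p of 0.357 (limma). Pairing by number is not stated in the labels. The changes from number 1 to number 2 correlated between genotypes at 0.33 across 1301 genes and at 0.64 across 30659 positions, neither of which are independent units.

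Leaving out single profiles gave 0.25 to 0.46 for Foxe1, 0.21 to 0.89 for Foxj3, 0.07 to 0.39 for Foxo6, -0.28 to 0.28 for Foxd2 and -0.28 to 0.31 for Foxe3. The higher flank of Foxj3 gave 0.33 to 0.92 and its lower flank 0.01 to 0.51, the lower flanks of Foxd2 and Foxe3 -0.56 to -0.24 and -0.53 to -0.22, the flanks of Foxe1 0.06 to 0.52 (lower) and 0.14 to 0.37 (higher), and the higher flank of Foxo6 0.11 to 0.33. The higher flanks of Foxd2 and Foxe3 gave -0.22 to 0.39 and -0.21 to 0.39, and the lower flank of Foxo6 -0.12 to 0.15. Genes called over the chromosome were 0 to 4, with 4 without deletion replicate 1, none of them a member.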

Other observations

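The noncoding genes named after members followed them in part. Foxd2os, between Foxd2 and Foxe3, scored 1.12 and 1.28 in the controls against 1.49 and 0.92 in the deletion profiles, the order of its neighbours. Foxo6os, just above Foxo6, scored 2.18 and 2.29 in the controls against 2.70 and 2.57 in the deletion profiles, so that the genotypes did not overlap there, whereas they did at Foxo6. Along the 5 bins of Foxo6 the number 2 difference ran from -0.17 at the lower end to 0.14 at the upper end, and the number 1 difference from 0.45 to 0.51.

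Beside Foxd3 the score reached 0 above the gene at 394 and 464 kb in control and 394 and 424 kb in deletion cells, which overlap. With medians subtracted these were 474 and 509 kb in control and 459 and 449 kb in deletion 1 and 2, without overlap (exact two-sided permutation p = 0.333). Below the gene the genotypes overlapped either way. The deposited scores reached 0 there at 1344 and 1209 kb in control and 1199 and 1264 kb in deletion cells. With medians subtracted they did so at 1409 and 1364 kb in control and 1369 and 1294 kb in deletion cells.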
